A study of Mus musculus with 4 samples.

Results

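The MHC class II genes were followed in epithelial cells and leukocytes of mouse mammary glands and tumours, in a model that deletes Trp53 and Brca1 in luminal cells. The 9 members were found by gene symbol among the 27998 genes listed for every library, and all 9 were present. They were H2-Aa, H2-Ab1, H2-Eb1, Cd74, Ciita, H2-DMa, H2-DMb1, H2-Oa and H2-Ob. The study profiled single cells by droplet sequencing of transcript 3' ends (10x Chromium, version v2) in 4 libraries, and set premalignant cells beside tumours of the same model. All mice were female, of mixed background, with floxed Trp53 and Brca1 alleles and a YFP reporter at the Rosa26 locus (R26Y). Cre came from the adenovirus Ad-K8-Cre, given into the ducts, which acts in cells that use the keratin 8 promoter. Every group is labelled as null for both genes and no group with intact genes is compared here; the leukocytes were not selected for Cre activity.

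The 2 weeks library held sorted YFP+ cells taken about 2 weeks after injection (1 library). The 5 months library mixed sorted YFP+ cells with sorted CD45+ leukocytes, taken about 5 months after injection (1 library). The tumour 1 and tumour 2 libraries held live, DAPI-negative cells from 1 tumour each, so that tumour was the only group with 2 libraries. The labels gave neither the number of mice behind a library nor the mixing ratio at 5 months, and the sorts differed between the groups. The spread between the 2 tumours is therefore the only spread between samples of 1 group, and sort, library and stage cannot be told apart. The p-values rest on a spread between library sums that edgeR moderates over all genes. For a single gene they need not follow its own spread between libraries.

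MHC class II molecules are surface receptors that present peptides from swallowed proteins to CD4+ T cells. H2-Aa and H2-Ab1 encode the alpha and beta chains of the I-A molecule, and H2-Eb1 the beta chain of I-E. Cd74, the invariant chain, occupies the peptide groove of new molecules. H2-DMa and H2-DMb1 encode chains of the H2-M chaperone that loads peptides, and H2-Oa and H2-Ob encode the H2-O molecule that restrains H2-M. Ciita is the coactivator that switches these genes on. Macrophages, dendritic cells and B cells use the genes constitutively, epithelial cells take them up under interferon-gamma, and mouse T cells do not make I-A or I-E.

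Of the members, 7 lie close together on chromosome 17, from H2-Oa (chr17:34092379-34095234) to H2-Eb1 (chr17:34305867-34316674), in the order H2-Oa, H2-DMa, H2-DMb1, H2-Ob, H2-Ab1, H2-Aa and H2-Eb1 (RefSeq annotation of GRCm38.p6). RefSeq promoters, which span 250 bases before to 50 bases after the start of a gene, were listed for 6 members. They were read because most members, though not H2-Oa, passed as higher in leukocytes. Another reason was that CIITA works through an X box and a Y box, an inverted CCAAT motif. Capitals mark GNAAC, part of the X box, and TGATTGG, which holds the Y box; the lines run 5′ to 3′ on the strand of the gene, and the letters searched were chosen after the sequences had been seen.
H2-Aa, chr17:34287855-34287912, minus strand: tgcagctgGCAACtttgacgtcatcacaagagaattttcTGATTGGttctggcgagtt
H2-Eb1, chr17:34305768-34305824, plus strand: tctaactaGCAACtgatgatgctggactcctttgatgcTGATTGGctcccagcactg
H2-DMb1, chr17:34153089-34153146, plus strand: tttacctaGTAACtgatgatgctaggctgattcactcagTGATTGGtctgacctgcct
H2-Oa, chr17:34092295-34092352, plus strand: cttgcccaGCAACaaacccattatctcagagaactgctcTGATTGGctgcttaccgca
H2-Ob, chr17:34238810-34238864, plus strand: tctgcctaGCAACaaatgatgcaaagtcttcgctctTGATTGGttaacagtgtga

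The gap between the motifs was 23 to 26 bases in the 5 promoters, and TGATTGG ended 38 to 56 bases before the gene start. TGATTGG was found on either strand in 7.82% of the 32851 RefSeq promoters of the same length. GNAAC followed by TGATTGG on the same strand, 15 to 35 bases apart, was found in 187 of them (0.569%). The 2 promoters listed for H2-DMa held neither TGATTGG nor the pair. H2-Ab1, Cd74 and Ciita were not in the promoter table.

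Cells, here called barcodes, were dropped if fewer than 500 genes were detected or over 10% of UMIs were mitochondrial, which left 1301, 4668, 2640 and 1765 barcodes at 2 weeks, 5 months, tumour 1 and tumour 2. Epithelial barcodes had at least 3 UMIs (counted molecules) of Krt8 and Krt18 together and none of Ptprc, the pan-leukocyte CD45 gene. Myeloid cells were taken by at least 3 UMIs of Tyrobp, an adaptor of myeloid and natural killer cells, and B lineage cells by at least 1 UMI of Cd79a, a chain of the B cell receptor. Barcodes with at least 1 UMI of Cd3e, a chain of the T cell receptor complex, served as the comparison class; what RNA free in the suspension, or a second cell in the droplet, adds to their class II UMIs was not tested. Barcodes that met more than 1 of these rules were left out of the sums. That left 1132, 393, 317 and 371 epithelial barcodes, and 5, 625, 1951 and 730 Tyrobp barcodes, in the same order of libraries. Cd79a barcodes numbered 3, 743, 27 and 41, and Cd3e barcodes 2, 1154, 17 and 106. Levels are CPM, the UMIs of a gene in every 1000000 UMIs of its class, and their 95% exact Poisson intervals cover counting error only. Exact binomial intervals of shares take the barcodes or UMIs of a library as independent, and they too leave out spread between libraries. The 3 leukocyte classes of the 2 weeks library, each under 10 barcodes, entered no test. The median depth of epithelial barcodes was 4162.5, 4339, 14035 and 8079 UMIs in the 4 libraries in order. In all, 46 barcode sequences occurred in more than 1 library, counted over pairs of libraries.

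Marker levels were set beside the class names. The 6 epithelial markers, of which Krt8 and Krt18 were in the rule, were all detected in the epithelial barcodes of each library, at a summed 11887, 11825, 3532 and 5605 CPM at 2 weeks, 5 months, tumour 1 and tumour 2. Markers of macrophages and monocytes summed to 21774 and 9575 CPM in Tyrobp barcodes of the tumours and 9343 CPM at 5 months. Tumour 2 also had 29144 CPM of neutrophil markers there, against 1080 CPM in tumour 1 and 2412 CPM at 5 months. Cd79a barcodes of tumour 1 carried 123495 CPM of plasma cell markers, against 38021 CPM in tumour 2 and 35939 CPM at 5 months.

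Class II levels were highest in the Tyrobp and Cd79a barcodes. The 9 members together reached 34670.4 CPM in Tyrobp barcodes of tumour 1 and 28943 CPM in those of tumour 2, and 51161 CPM at 5 months. Cd79a barcodes reached 8190.4 and 9386 CPM in the tumours and 26613.5 CPM at 5 months. Epithelial barcodes had 910, 263, 319 and 185 CPM at 2 weeks, 5 months, tumour 1 and tumour 2. Cd3e barcodes had 516 CPM in tumour 1, 253 CPM in tumour 2 and 1392 CPM at 5 months. In each library with such sums, the order by CPM was thus Tyrobp, Cd79a, Cd3e and epithelial barcodes.

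**Figure D1:**
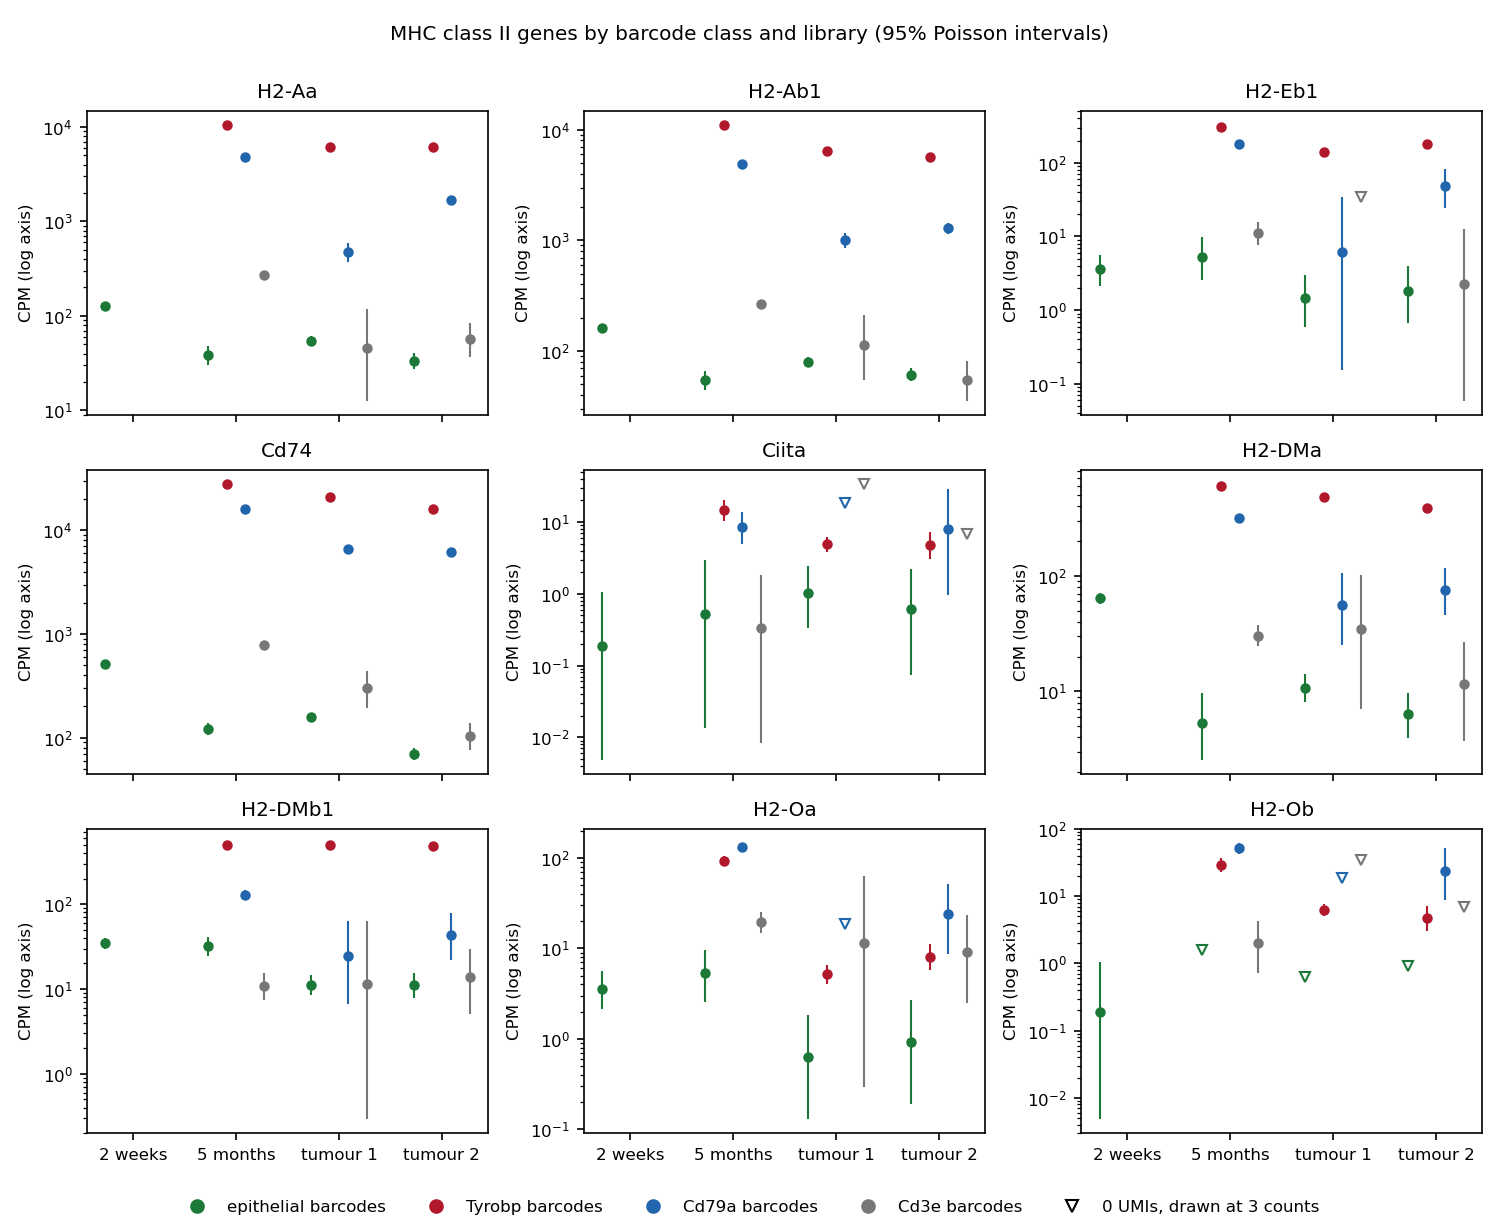
Level of each of the 9 members (CPM, log axis) in each library, for epithelial, Tyrobp, Cd79a and Cd3e barcodes; points are class sums of at least 10 barcodes, bars 95% exact Poisson intervals, and open triangles sums with 0 UMIs drawn at 3 counts. Tyrobp barcodes lie highest for most members, and the epithelial level of H2-DMb1 at 5 months (32.3 CPM) lies above that of Cd3e barcodes (10.9 CPM).

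In Tyrobp barcodes, 8 of the 9 members were higher than in Cd3e barcodes, where 10.5% of the 12845 genes tested were higher and 4.36% lower (14.8% in either direction) (edgeR quasi-likelihood test with library as a block, Benjamini-Hochberg adjusted p under 0.05). The median log2 difference of the members was 5.65, against 0.15 over all genes. It was 5.96 over the 7 members other than Ciita and H2-Ob, which were nearly absent from Cd3e barcodes. Ciita and H2-Ob, both among the 8, were high enough to be tested only through the Tyrobp and Cd79a sums. Their calls are descriptions and give no support for a rise. Cd74 had 21004 CPM in Tyrobp barcodes of tumour 1, 16085 CPM in tumour 2 and 28133 CPM at 5 months; in Cd3e barcodes it had 298, 103 and 778 CPM in the same order. The log2 difference was 6.37 ± 0.46 (SE, edgeR adjusted p = 2.4e-07), and the classes did not overlap. H2-Aa, the I-A alpha chain, differed by 6.39 ± 0.62 (edgeR adjusted p = 2.6e-06), with 6102, 6112 and 10494 CPM in Tyrobp barcodes of the same 3 libraries. H2-DMb1 varied least across the 3 libraries, at 499, 485 and 503 CPM, and differed from Cd3e barcodes by 5.96 ± 0.52 (edgeR adjusted p = 1.1e-06). H2-Oa was the member that did not pass (1.56 ± 0.60, edgeR adjusted p = 0.094). It had 5.16 and 8.12 CPM in Tyrobp barcodes of tumours 1 and 2 and 92.7 CPM at 5 months, against 11.5, 9.18 and 19.5 CPM in Cd3e barcodes. At 5 months H2-Oa made up 0.181% of the class II UMIs of Tyrobp barcodes and 0.495% of those of Cd79a barcodes, against 1.40% of those of Cd3e barcodes (exact binomial interval 1.07 to 1.80%), so that its share in the comparison class was above that of either leukocyte class. Ciita, the switch of the set, was low even there, at 4.87, 4.79 and 14.7 CPM (68, 23 and 35 UMIs), while Cd3e barcodes had 1 UMI of it in all.

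In Cd79a barcodes, again 8 of the 9 members were higher than in Cd3e barcodes, where 2.05% of all genes were higher and 1.03% lower (3.08% in either direction). The median log2 difference was 3.99 over the members, 3.67 without Ciita and H2-Ob, and -0.02 over all genes. Ciita and H2-Ob were again among the 8, and their calls are descriptions here too. Cd74 differed by 4.83 ± 0.43 (edgeR adjusted p = 9.2e-06), with 6624 CPM in tumour 1, 6199 CPM in tumour 2 and 16184 CPM at 5 months. H2-Ab1, the I-A beta chain, differed by 3.99 ± 0.45 (edgeR adjusted p = 0.00011), with 1008, 1280 and 4840 CPM. H2-Ob, the partner of H2-Oa, had 0, 23.8 and 51.6 CPM. H2-Oa did not pass (2.11 ± 0.64, edgeR adjusted p = 0.092), with 0, 23.8 and 132 CPM in those libraries. With the class rules as written, under which a barcode may enter both sums, none of the 9 passed, and without the library block 2 did. Of the 19 other genes of the pathway, 11 rose in Tyrobp barcodes and 7 in Cd79a barcodes relative to Cd3e barcodes, and none fell. Their median log2 difference was 3.64 in Tyrobp barcodes, and 1.39 in Cd79a barcodes. H2-DMb2, a second beta chain of H2-M, rose in both (4.53 ± 0.48 and 4.73 ± 0.49 on the log2 scale). Ctss, the cathepsin that trims the invariant chain, passed in Tyrobp barcodes alone (4.63 ± 0.45), and Ifi30, a lysosomal thiol reductase, passed in both (4.74 ± 0.37 and 2.94 ± 0.36); the difference between the classes was not tested.

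Genes whose pattern over the 13 class sums was most like the summed members were ranked among 8712 genes by Pearson correlation of log2 CPM. The leading 5 outside the set were Scimp (r = 0.966), Cd40 (0.951), Dnase1l3 (0.948), H2-DMb2 (0.945) and Unc93b1 (0.941). Among the members, r was 0.998 for Cd74, 0.866 for H2-DMb1 and 0.502 for H2-Oa. Each member is part of the sum it was set against, and Cd74 is the largest part, so these r follow partly from the share each member holds. The sums share libraries, and these values are descriptions.

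Within Tyrobp barcodes, those with macrophage or monocyte genes had the most Cd74 in each of these 3 libraries, at 21587 and 24430 CPM in the tumours (1844 and 413 barcodes) and 39106 CPM at 5 months (242 barcodes), leaving out the lone natural killer gene barcode of tumour 1. Barcodes with dendritic genes had 17821, 13513 and 26747 CPM (17, 23 and 108 barcodes), and they had more H2-Oa. There H2-Oa stood at 36.1 and 54.0 CPM in the tumours and 151 CPM at 5 months, against 4.14, 7.003 and 28.3 CPM in the macrophage or monocyte subset of the same libraries. Ciita ran the other way at 5 months, with 3.82 CPM (2 UMIs) in dendritic and 25.0 CPM (23 UMIs) in macrophage or monocyte barcodes. Barcodes with neutrophil genes had 2133 CPM of Cd74 in tumour 2, which held 236 of them, and 11632 CPM in tumour 1, which held 44.

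Cd79a barcodes with Ms4a1 and those with Jchain differed in their levels of Cd74 and H2-Aa in tumour 2 and at 5 months. Barcodes with Ms4a1, which encodes the B cell surface protein CD20, had 11508 CPM of Cd74 and 3544 CPM of H2-Aa in tumour 2 (13 barcodes), and 17866 and 5338 CPM at 5 months (414 barcodes). Barcodes with at least 10 UMIs of Jchain, the joining chain of secreted antibodies, and none of Ms4a1 still had 7339, 3109 and 7124 CPM of Cd74 in tumour 1, tumour 2 and 5 months (25, 9 and 70 barcodes). Their H2-Aa stood at 285, 248 and 276 CPM, and none of them had a UMI of Ciita, H2-Oa or H2-Ob. At 5 months, 3 counts would have been 11.03 CPM in that subset, so levels below this were not detectable. The whole Cd79a class of that library had 8.61 CPM of Ciita, which is below this floor. The lack of Ciita UMIs therefore does not tell the subsets apart. The class had 132 CPM of H2-Oa and 51.6 CPM of H2-Ob, both above the floor. Tumour 1 had 25 of its 27 Cd79a barcodes in the Jchain subset, tumour 2 had 9 of 41, and 5 months had 70 of 743.

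**Figure D2:**
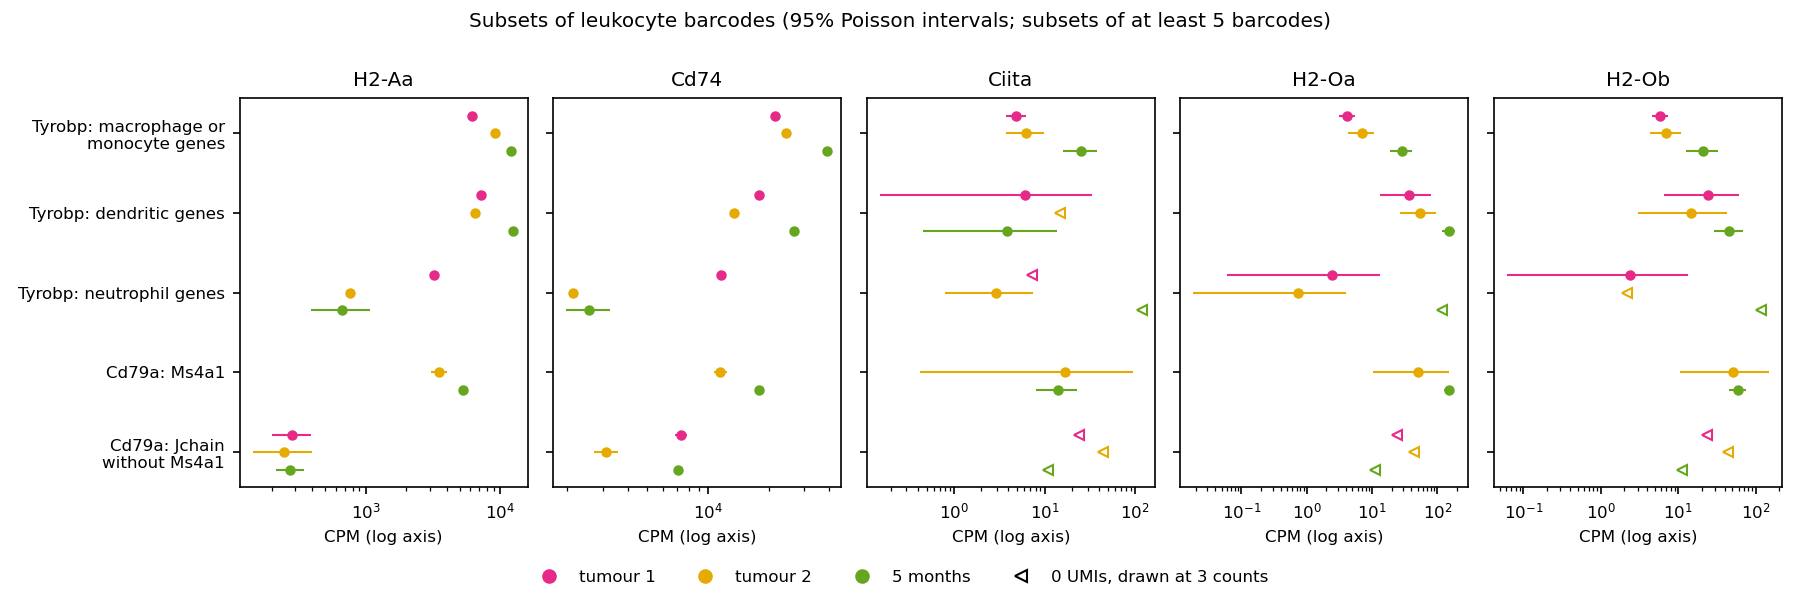
Level (CPM, log axis) of H2-Aa, Cd74, Ciita, H2-Oa and H2-Ob in subsets of Tyrobp and Cd79a barcodes in tumour 1, tumour 2 and 5 months; points are sums over at least 5 barcodes, bars 95% exact Poisson intervals, and open triangles sums with 0 UMIs drawn at 3 counts. In the Jchain subset Cd74 stays between 3109 and 7339 CPM while H2-Aa lies between 248 and 285 CPM and Ciita, H2-Oa and H2-Ob have no UMI.

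In Tyrobp barcodes, no member passed the test between tumour and 5 months. The count was 0 of 9, and 0 of the 11429 genes tested were called at all (0%) by edgeR, with 1047 at an unadjusted p under 0.05, 7 members among them. All 9 had lower values in tumour. H2-Oa had 5.16 and 8.12 CPM in the tumours and 92.7 CPM at 5 months, a log2 difference of -3.93 ± 0.42 (edgeR adjusted p = 0.35). DESeq2 called this gene (adjusted p = 6.7e-06). H2-Ob had 6.23 and 4.79 CPM against 29.1 CPM (-2.48 ± 0.42, edgeR adjusted p = 0.41), and H2-DMb1 differed least (-0.13 ± 0.31). The share of Tyrobp barcodes with dendritic genes moved with this comparison, at 0.871% and 3.15% in the tumours and 17.3% at 5 months. In the macrophage or monocyte subset alone, a comparison chosen after the values had been seen, the log2 difference of H2-Oa was -2.50 (edgeR adjusted p = 0.39).

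In Cd79a barcodes, 5 of the 8 members tested fell in tumour relative to 5 months, where 0.885% of 3840 genes were lower and 1.88% higher (2.76% in either direction). H2-Aa had 473 and 1685 CPM in the tumours and 4773 CPM at 5 months, a log2 difference of -2.15 ± 0.59 (edgeR adjusted p = 0.012). H2-Eb1 differed by -2.61 ± 0.72, H2-DMa by -2.23 ± 0.66 and H2-Ab1 by -2.04 ± 0.59. H2-Oa, also among the 5, differed by -3.25 ± 0.80 (edgeR adjusted p = 0.0033). It had 0 and 6 UMIs in tumours 1 and 2 and 260 UMIs at 5 months. As H2-Oa passed the filter on low counts through the 5 months sum alone, its call is a description and gives no support for a fall. Cd74 did not pass (-1.27 ± 0.53, edgeR adjusted p = 0.27). DESeq2 and the rules as written called none of them. The share of Jchain barcodes without Ms4a1 moved with the comparison, at 92.6% and 22.0% in the tumours and 9.42% at 5 months. Within that subset H2-Aa had 285 and 248 CPM in the tumours and 276 CPM at 5 months, and within the Ms4a1 barcodes 3544 CPM in tumour 2 and 5338 CPM at 5 months.

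Epithelial barcodes of the 2 weeks library had the highest summed class II level of the 4 epithelial sums, with almost no leukocyte marker RNA beside it. Cd74 had 517 CPM, H2-Ab1 160 CPM, H2-Aa 126 CPM, H2-DMa 64.0 CPM and H2-DMb1 34.5 CPM there. H2-Eb1 and H2-Oa had 3.59 CPM each, and Ciita and H2-Ob 1 UMI each. In the same barcodes, 5 of 6 macrophage or monocyte markers were detected, at 3.02 CPM in all. The 5 Tyrobp barcodes of that library had 9464 CPM of them. None of 5 B cell markers was detected, but Cd79a was absent by the class rules. By the rules as written, none of 1133 epithelial barcodes had a Cd79a UMI. Csf1r and Lyz2 had 2 UMIs each, and Adgre1, which encodes the macrophage protein F4/80, had none. The 2 Cd3e barcodes of the library had no class II UMI, which with so few cells allows up to 149.6 CPM of each member (3 counts).

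The RNA was concentrated in few cells. Of 1132 epithelial barcodes at 2 weeks, 703 had no UMI of any member and 132 had 10 or more, with a maximum of 113. The 114 richest barcodes (10% of the class, rounded up) held 80.5% of the member UMIs, against 38.2%, 29.4% and 30.3% for the richest 10% at 5 months, tumour 1 and tumour 2. The 132 barcodes had 6774 CPM of Krt8 and Krt18, against 6792 CPM in all 1132, and 13.5 CPM of macrophage or monocyte, dendritic and B cell markers together, against 4.72 CPM. Members were found in the same cells. Among 187 barcodes with at least 3 UMIs of Cd74, 79.1% had H2-Ab1, 73.3% H2-Aa, 58.8% H2-DMa and 36.9% H2-DMb1. Among 842 barcodes without Cd74 these shares were 2.02%, 1.66%, 6.53% and 7.48%. Among the barcodes without Cd74, the 95% exact binomial intervals were 4.96 to 8.42% for H2-DMa and 5.80 to 9.47% for H2-DMb1. For H2-Ab1 and H2-Aa they were 1.18 to 3.21% and 0.912 to 2.77%, and the differences were not tested. Median depth was 4929 UMIs with at least 3 UMIs of Cd74 and 4024 UMIs without Cd74.

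Interferon-gamma induces class II genes in epithelium, so epithelial barcodes were split by at least 1 UMI of Cxcl9, Cxcl10 or Ido1, which respond to it. In the 2 weeks library, 454 barcodes had such a UMI and 678 had none. The 9 members summed to 1755 CPM with and 252 CPM without, a 6.98-fold ratio. Cd74 had 1006 CPM with and 136 CPM without (7.38-fold), H2-Ab1 317 and 38.6 CPM (8.22-fold), H2-Aa 246 and 33.2 CPM (7.41-fold), and H2-DMa 119 and 21.1 CPM (5.63-fold). H2-DMb1 differed less, at 53.5 and 19.8 CPM (2.70-fold). After each barcode was thinned to 1000 UMIs, 39.7% of those with and 10.4% of those without had a class II UMI (95% exact binomial intervals 35.2 to 44.4% and 8.17 to 12.9%). Of the 132 barcodes with 10 or more class II UMIs, 112 (84.8%) had one of the 3 genes, against 40.1% of all.

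In the other libraries the sums of the 2 groups of barcodes were close, while single members went both ways. Cd74 with the genes stood at 0.631 times its level without them at 5 months and at 1.59 times in tumour 2. H2-DMa stood at 1.94 times in tumour 1. The rule of 1 UMI was applied at unlike depths, with a median of 14035 and 8079 UMIs in tumours 1 and 2 and 4162.5 at 2 weeks. The effect of depth on the split was not tested. The members summed to 262 CPM with and 263 CPM without at 5 months (15 and 378 barcodes), 344 and 313 CPM in tumour 1 (54 and 263 barcodes), and 169 and 186 CPM in tumour 2 (26 and 345 barcodes). In tumour 2, H2-Ab1 was lower with the genes, at 25.4 CPM (6 UMIs, interval 9.31 to 55.2) with and 64.3 CPM (196 UMIs, interval 55.7 to 74.0) without. In the fit over all libraries, 4 of the 7 members tested rose, where 1.08% of 10579 genes were higher and 1.39% differed in either direction. These were H2-Aa (1.24 ± 0.20), H2-Ab1 (1.02 ± 0.19), Cd74 (1.00 ± 0.19) and H2-DMa (1.73 ± 0.26), with edgeR adjusted p = 2.1e-07, 2.4e-05, 3.6e-05 and 1.8e-08. Without the 2 weeks library none passed, and the log2 difference of H2-Ab1 was -0.27; none passed either with DESeq2 or without the library block, and 1 passed without 5 months. Macrophage or monocyte, dendritic and B cell markers together had 6.90 CPM with and 3.02 CPM without at 2 weeks (16 and 9 UMIs), and their part in the result was not tested; Tyrobp had no UMI in either group. A test of the difference between libraries, chosen after the values had been seen, set the change at 2 weeks against that of the others. H2-Ab1 (3.30 ± 0.43), H2-Aa (2.86 ± 0.44) and Cd74 (2.84 ± 0.44) passed it, 3 of 7 members, where 0.167% of 11371 genes were higher and 0.193% differed in either direction. Their edgeR adjusted p were 1.4e-10, 2.7e-07 and 2.7e-07. H2-DMa did not pass (2.00 ± 0.60, edgeR adjusted p = 0.23). Of the 11 other interferon-gamma response genes that the split did not use, 6 rose in the fit over all libraries, among them the transcription factor gene Irf1 (0.96 ± 0.22) and the guanylate-binding protein genes Gbp2 (1.94 ± 0.21) and Gbp4 (3.09 ± 0.37). None of the 12 tested pathway genes outside the set passed with edgeR (1 at an unadjusted p under 0.05), and their median log2 difference was -0.03. The median was 0.72 over the 11 response genes and -0.05 over all genes.

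**Figure D3:**
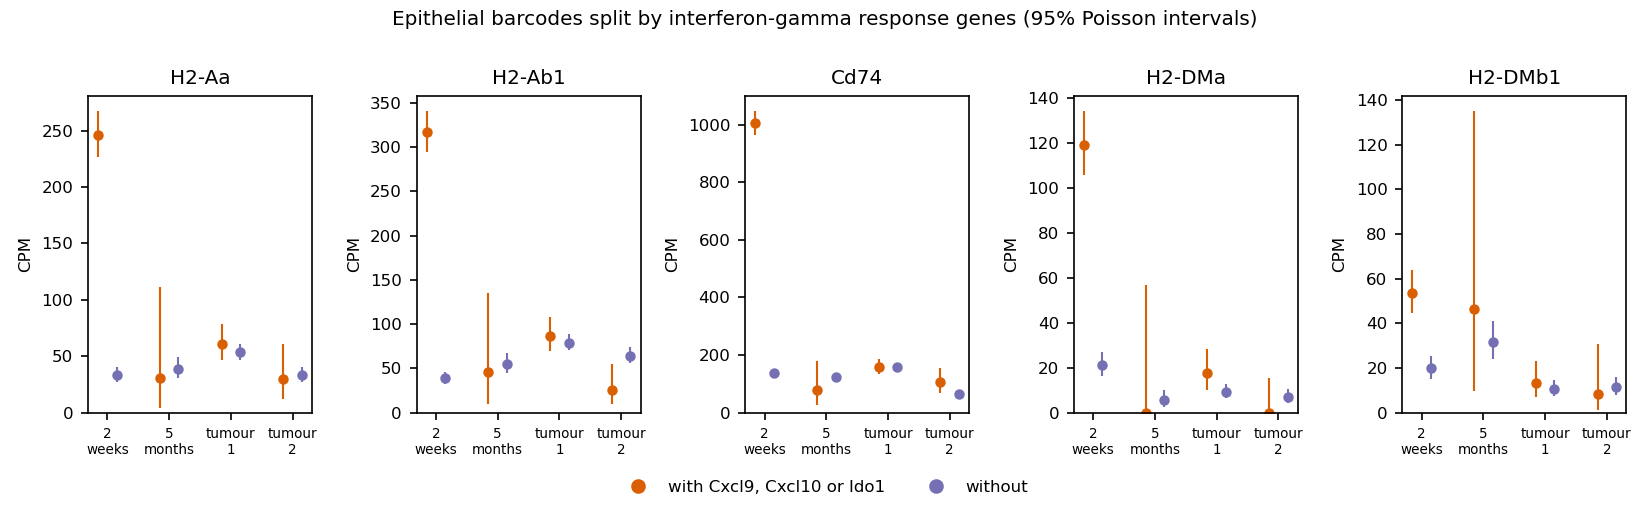
Level (CPM) of 5 members in epithelial barcodes with at least 1 UMI of Cxcl9, Cxcl10 or Ido1 and in those without, by library; points are sums over the barcodes of a group and bars 95% exact Poisson intervals. At 2 weeks all 5 members lie higher with the genes (Cd74 1006 CPM with and 136 CPM without), and elsewhere the intervals overlap except for H2-Ab1 in tumour 2, which lies lower with them (25.4 CPM with and 64.3 CPM without).

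Hormone-sensing and progenitor genes divided the 2 weeks epithelium further. Barcodes with Prlr, Pgr, Esr1 or Cited1 and no progenitor gene made up 944 of 1132, and their Cd74 had 796 CPM with the interferon response genes and 77.4 CPM without. Barcodes with Elf5, Kit or Aldh1a3 and no hormone-sensing gene numbered 54, and their Cd74 had 1838 CPM with and 961 CPM without. The 70 barcodes with neither had 3315 and 333 CPM. H2-Oa had 35.8 CPM (6 UMIs) in the progenitor barcodes with the response genes, 44.4 CPM (6 UMIs) in those with neither, and 1.67 CPM (3 UMIs) in the hormone-sensing ones. These are sums of 1 library with no test.

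At 5 months and in the tumours, the summed class II level of epithelial barcodes in CPM lay below that of Cd3e barcodes of the same library. Cd74 had 158 and 69.2 CPM in epithelial barcodes of tumours 1 and 2 and 121 CPM at 5 months, against 298, 103 and 778 CPM in Cd3e barcodes. In the fit over all libraries, in which 2 weeks entered with its epithelial sum alone, 3 of the 9 members were lower in epithelial than in Cd3e barcodes and none was higher, where 11.3% of the 12845 genes were lower and 25.8% differed in either direction. The members' median log2 difference was -1.25, against 0.11 over all genes. Cd74 differed by -1.52 ± 0.39 (edgeR adjusted p = 0.0086) and H2-Oa by -2.35 ± 0.67 (edgeR adjusted p = 0.016). H2-Ob passed narrowly (edgeR adjusted p = 0.0499) on 1 epithelial UMI and 6 UMIs in Cd3e barcodes, too few to fix the size of its difference. Without the 5 months library or the library block none of the 9 passed, and without tumour 2 Cd74 alone did. With a stricter Cd3e rule, at least 2 UMIs and none of Tyrobp, Cd79a, Krt8 or Krt18, none of the 9 was lower and 1, H2-DMb1, was higher, and the members' median was -0.67. At 5 months the 380 barcodes of that rule had 747 CPM of the 9 members, against 1392 CPM in the wider Cd3e class. Their Cd74 had 450 CPM and their H2-Aa 106 CPM, against 778 and 272 CPM in the wider class, while H2-Oa had 16.6 CPM, against 19.5 CPM. Thinned to 1000 UMIs, 28.1% and 14.3% of epithelial barcodes in the tumours and 23.2% at 5 months had a class II UMI, against 35.3%, 21.7% and 32.0% of Cd3e barcodes. The exact binomial intervals of epithelial and Cd3e barcodes were 23.2 to 33.4% and 14.2 to 61.7% in tumour 1. In tumour 2 they were 10.9 to 18.3% and 14.3 to 30.8%, and at 5 months 19.1 to 27.6% and 29.3 to 34.8%. Their width follows the number of barcodes (17 of the Cd3e class in tumour 1, 106 in tumour 2 and 1154 at 5 months). The difference in shares between the classes was not tested. At full depth the shares were 95.9%, 74.7% and 62.1% of epithelial barcodes, at median depths of 14035, 8079 and 4339 UMIs. They were 82.4%, 59.4% and 49.8% of Cd3e barcodes, at 4917, 3387 and 1956 UMIs. Without thinning the epithelial shares thus lay above those of Cd3e barcodes. The order of the classes changed with thinning, and CPM is likewise relative to depth. The part of depth in these rankings was not tested. In the tumours single members went both ways, with H2-Aa at 54.9 CPM in epithelial and 45.9 CPM in Cd3e barcodes of tumour 1, and H2-Ab1 at 61.5 and 55.1 CPM in tumour 2. At 2 weeks the thinned share was 22.2% of epithelial barcodes, with 2 Cd3e barcodes to compare.

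Leukocyte genes were present in the same epithelial barcodes. Macrophage or monocyte markers summed to 243 and 80.4 CPM in the tumours and 21.1 CPM at 5 months, with all 6 detected in each. Lyz2 alone had 133, 35.3 and 11.1 CPM. In Cd3e barcodes of the same libraries, the macrophage or monocyte markers summed to 436 (38 UMIs), 52.8 and 53.4 CPM. Neutrophil markers summed to 203, 577 and 115 CPM in epithelial barcodes and 103, 455 and 34.0 CPM in Cd3e barcodes. The part of this leukocyte RNA in the class II values was not tested. Ciita had 5, 2 and 1 epithelial UMIs in tumour 1, tumour 2 and 5 months, a level not detectable above that of Cd3e barcodes at this depth. Of the 19 other pathway genes, 2 were higher in epithelial than in Cd3e barcodes (Ctsl, a cathepsin, by 3.55 ± 0.55, and Ifi30 by 1.01 ± 0.35) and 5 lower (Ctss, Cd80, Cd83, Cd86 and H2-DMb2), where 14.6% of all genes were higher and 11.3% lower. Their median log2 difference was -0.39.

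H2-DMb1 stood apart in its share of the class II UMIs. At 5 months it had 32.3 CPM in epithelial barcodes (61 UMIs, interval 24.7 to 41.4) and 10.9 CPM in Cd3e barcodes (33 UMIs, interval 7.49 to 15.3), a 2.96-fold ratio, while Cd74 stood 6.46-fold lower in epithelial barcodes. It made up 12.3% of the class II UMIs of epithelial barcodes (exact binomial interval 9.52 to 15.5%), against 0.782% in Cd3e, 0.983% in Tyrobp and 0.487% in Cd79a barcodes of that library. In tumour 1 the share was 3.51% of epithelial, 1.44% of Tyrobp, 0.30% of Cd79a and 2.22% of Cd3e class II UMIs, the Cd3e value on 1 UMI, and in tumour 2 it was 6.10%, 1.68%, 0.465% and 5.45%. H2-DMb1 itself had 11.2 and 11.3 CPM in epithelial barcodes of the tumours, against 11.5 and 13.8 CPM in Cd3e barcodes. Over all libraries its log2 difference between epithelial and Cd3e barcodes did not pass (0.61 ± 0.51, edgeR adjusted p = 0.42). With the stricter Cd3e rule it was 3.42 ± 0.81 (edgeR adjusted p = 0.0087), and no other member passed; tumour 1 had 2 such barcodes and no sum. H2-DMb1 had 2.49 CPM (3 UMIs) in such barcodes at 5 months and 0 UMIs in the 36 of tumour 2, too few to fix the size of this difference. H2-DMa, its partner, made up 7.03% of epithelial class II UMIs at 2 weeks (interval 6.33 to 7.79%). In the 5 Tyrobp barcodes of that library it made up 1.81% (12 UMIs, interval 0.940 to 3.14%). In Tyrobp barcodes of 5 months, tumour 1 and tumour 2 it made up 1.16%, 1.37% and 1.34%. In epithelial barcodes of 5 months, tumour 1 and tumour 2 it made up 2.01%, 3.38% and 3.46%, against 2.18%, 6.67% and 4.55% in Cd3e barcodes (92, 3 and 5 UMIs), so that in these libraries its epithelial share was not above that of Cd3e barcodes.

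**Figure D4:**
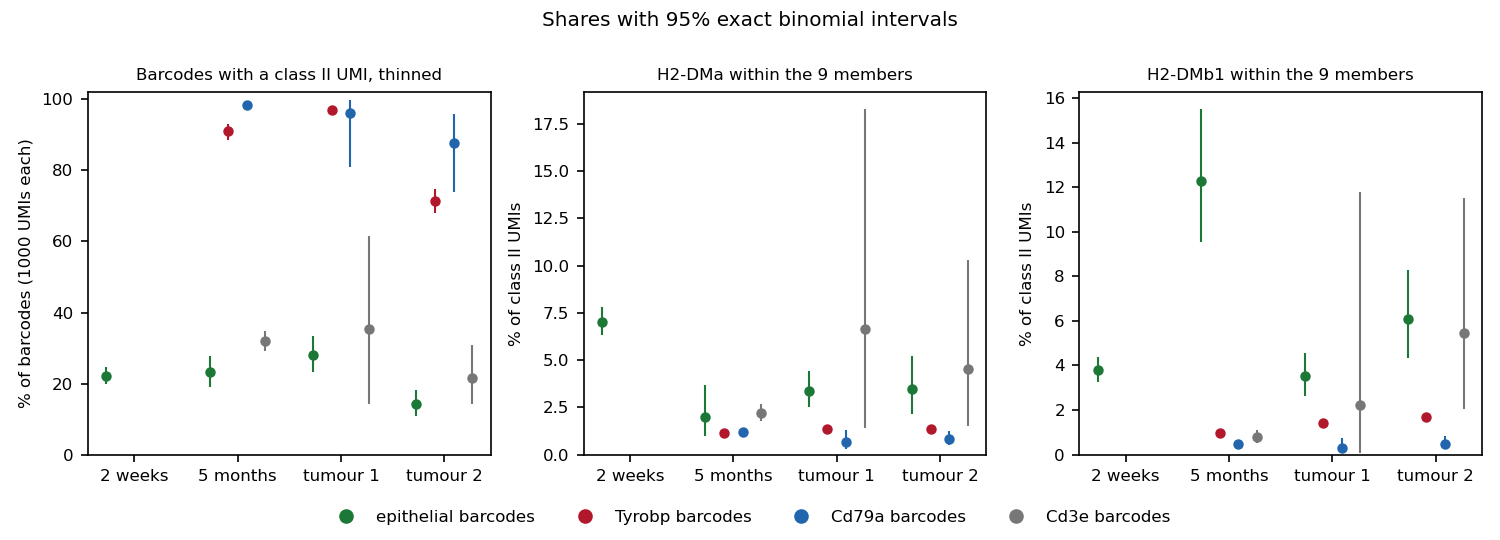
Left, share of barcodes with at least 1 UMI of any member after thinning to 1000 UMIs; middle and right, H2-DMa and H2-DMb1 as a percentage of the UMIs of all 9 members; points by class and library with 95% exact binomial intervals, for classes of at least 10 barcodes. At 5 months and in the tumours, the epithelial shares of barcodes (14.3 to 28.1%) lie below those of Cd3e barcodes in the same library, and the epithelial H2-DMb1 percentage at 5 months (12.3%) lies above every leukocyte class.

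Between stages, the epithelial levels of H2-Aa, H2-Ab1, Cd74 and H2-DMa were highest at 2 weeks, while H2-DMb1 had 34.5 CPM at 2 weeks, 32.3 CPM at 5 months, and 11.2 and 11.3 CPM in tumours 1 and 2. In tumour relative to 2 weeks, 1 of the 7 members tested fell, where 1.53% of 12030 genes were lower and 2.36% higher (3.89% in either direction). This was H2-DMa, with 10.8 and 6.40 CPM in the tumours and 64.0 CPM at 2 weeks, a log2 difference of -2.78 ± 0.61 (edgeR adjusted p = 0.027). It did not pass with DESeq2 (adjusted p = 0.068), nor in the fits with RLE factors, all deposited barcodes or the rules as written. Cd74 averaged 114 ± 63.1 CPM in tumour (SD, n = 2) and had 517 CPM at 2 weeks (-2.07 ± 0.61, edgeR adjusted p = 0.090). The members' median was -1.53, against 0.03 over all genes. Of the 14 interferon-gamma response genes 5 fell in the same comparison, among them Gbp2, Gbp4, Cxcl9 and Ido1, and the median of the 14 was -2.15. The share of epithelial barcodes with Cxcl9, Cxcl10 or Ido1 moved with it, at 17.0% and 7.01% in the tumours and 40.1% at 2 weeks. The share with hormone-sensing genes alone moved too, at 5.36% and 8.63% in the tumours and 83.4% at 2 weeks.

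In tumour relative to 5 months, none of the 7 members tested in epithelial barcodes passed (edgeR), where 0.707% of genes were lower and 0.183% higher (0.889% in either direction), 1175 genes, 2 members among them, had an unadjusted p under 0.05 and DESeq2 also called no member. H2-DMb1 had 11.2 and 11.3 CPM in the tumours and 32.3 CPM at 5 months (-1.59 ± 0.59, edgeR adjusted p = 0.36). Between 5 months and 2 weeks, 1 library each and so without a test, 4 of the 5 members with at least 20 CPM were at least 2-fold lower at 5 months. Of the 5887 genes with at least 20 CPM, 15.2% were lower by that rule and 29.8% differed in either direction. The log2 ratios, with 1 CPM added, were -3.30 for H2-DMa, -2.01 for Cd74, -1.61 for H2-Aa and -1.45 for H2-Ab1, and -0.02 for H2-DMb1. With the rules as written, which leave barcodes of mixed class in, H2-DMa alone was still 2-fold lower and H2-Aa stood at 0.058.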

How the data were processed

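The deposited files held UMI counts per gene and barcode; per the submitters' processing notes the authors used Cell Ranger with mm10 (GRCm38), and the version is not stated. The 9 members and the gene lists were chosen with earlier results of these data known. Gene names were stripped of a genome prefix, and 694 genes listed for the 5 months library alone were left out. The libraries held 6722044, 15060411, 23736366 and 13061942 UMIs at 2 weeks, 5 months, tumour 1 and tumour 2, which sets the precision of low genes. Counts were summed over the barcodes of a class in a library (at least 10 barcodes; 13 sums) and tested in edgeR 4.0.16 (R 4.3.3; TMM, filterByExpr, quasi-likelihood F test, two-sided, Benjamini-Hochberg over all genes tested, threshold 0.05), with library as a block for classes and for the interferon split. The SE was taken from the log2 difference and its F value. Stage comparisons had 1 residual degree of freedom, from the 2 tumours, and the lone libraries were assumed to vary as these do. Classes of a library are pairs because they share a suspension. No doublet caller was run: barcodes that met more than 1 class rule were left out. Thinning used seed 7. The scripts were tested on simulated data. Alternatives were DESeq2 1.42.0, RLE factors, no filter, all barcodes, rules as written, stricter rules, no block and each library left out. All 9 members are named; other genes come from the pathway and interferon lists where they passed (1 is not reported here), and the 5 with the highest Pearson r, among genes of at least 20 CPM in 1 sum.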

Additional observations from a re-analysis of the deposited data

Results flagged for a closer look

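H2-Ab1, H2-Aa and Cd74 changed differently between libraries when epithelial barcodes with Cxcl9, Cxcl10 or Ido1 were set against those without: the log2 change at 2 weeks exceeded that of the other libraries by 3.30 for H2-Ab1, 2.86 for H2-Aa and 2.84 for Cd74 (edgeR adjusted p = 1.4e-10, 2.7e-07 and 2.7e-07). All 3 passed as well with DESeq2, with RLE factors, without the filter, with all deposited barcodes, with the rules as written, with the stricter epithelial rule and without any 1 of 5 months, tumour 1 or tumour 2. The test of this difference was chosen after the values had been seen. Its 2 weeks side is 1 library, which every setting shared, so agreement between settings does not speak for other samples. The 5 months library held 15 barcodes with and 378 without these genes.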

How the results depend on the processing

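Counts of members called moved as follows. Epithelial against Cd3e barcodes, 3 lower in the main analysis, gave 5 with no filter on low counts, 8 with the rules as written, 0 with no replicate block, and 0 to 4 leaving out a library, all lower; the stricter Cd3e rule gave 1, H2-DMb1, which was higher, and none lower. Over these, the log2 difference of H2-Ob ran between -4.55 (without tumour 2) and 0.082 (without 5 months). Cd79a against Cd3e barcodes, 8, gave 0 with the rules as written, 2 with no replicate block and 5 to 8 leaving out a library (5 without 5 months). Tyrobp against Cd3e barcodes, 8, gave 6 to 9 throughout. The interferon split, 4, gave 0 with DESeq2, 1 with the rules as written, 2 with the stricter epithelial rule, 0 with no replicate block and 0 to 6 leaving out a library (0 without 2 weeks, 1 without 5 months, 6 without tumour 2); H2-Ab1 ran between -0.27 without 2 weeks and 1.41 without tumour 2. Tumour against 2 weeks, 1, gave 0 with RLE factors, DESeq2, all deposited barcodes and the rules as written, and 2 with no filter. Tumour against 5 months gave 1 with DESeq2 and 2 with no filter in Tyrobp barcodes (0 in the main analysis), and 0 with DESeq2 and the rules as written in Cd79a barcodes (5). The 5 months over 2 weeks count, 4, was 1 with the rules as written, H2-Aa then standing at 0.058. Thinning to 2000 UMIs raised the shares to 28.8% (2 weeks), 38.8% (5 months), 47.9% (tumour 1) and 31.5% (tumour 2) in epithelial barcodes, and to 50.6%, 64.7% and 41.5% in Cd3e barcodes of 5 months, tumour 1 and tumour 2. With the rules as written the Cd3e shares were 42.4% at 5 months and 35.8% in tumour 2. The cause was not tested.

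Genes called over the whole table ranged from 2040 to 3858 (epithelial against Cd3e), 909 to 2338 (Tyrobp), 38 to 791 (Cd79a), 1 to 150 (interferon split), 3 to 50 (the split's difference between libraries), 0 to 1138 (tumour against 2 weeks), and 0 to 470, 0 to 788 and 2 to 140 (tumour against 5 months in epithelial, Tyrobp and Cd79a barcodes). Of 327 alternative values of called members, 248 counted as the same, 72 lost significance, 5 moved and 2 reversed. A value counted as the same if it passed again in the same direction. In fits that gave no test, it counted as the same if it lay within the SE of the main value. The 5 that moved had no adjusted p-value. The class contrasts and the interferon split had library as the block, and their counts with no replicate block are given above. In the stage comparisons, no paired analysis was possible because the labels do not link a tumour to a library of another group. Leaving out a tumour left no residual degrees of freedom in stage comparisons within Tyrobp and Cd79a barcodes and in epithelial barcodes, so these gave values with no test.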
